A study of Saccharomyces cerevisiae with 24 samples.

Results

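The 10 genes described here encode the mating pheromone of a yeast cells, its exporter, and the receptor for the partner's pheromone. They also encode a protease that degrades the partner's pheromone, and proteins of agglutination and cell fusion. They were chosen by name, as MFA1 (YDR461W), MFA2 (YNL145W), STE6 (YKL209C), STE2 (YFL026W), BAR1 (YIL015W), FUS3 (YBL016W), FUS1 (YCL027W), FIG1 (YBR040W), AGA1 (YNR044W) and AGA2 (YGL032C), and all 10 were found among the 6814 genes of the joined count tables. They are protein-coding and no other gene of the tables overlaps them. STE6 lies at chrXI:42423-46295, STE2 at chrVI:82580-83875, BAR1 at chrIX:322342-324105, FUS3 at chrII:192451-193512, FUS1 at chrIII:71803-73341, FIG1 at chrII:316968-317864, AGA1 at chrXIV:703699-705876 and AGA2 at chrVII:436570-436833, in the files' coordinates, which for these genes equal those of the R64 genome. Levels were read in 24 RNA-seq libraries of Saccharomyces cerevisiae, 3 for each of 8 groups made of 2 strains and 4 media. In both strains, derived from GA74-1A, the genes PSD1 and PSD2 for phosphatidylserine decarboxylase were deleted, and a copy of Psd1 carried on a pRS305 construct was put back. In the mutant (LG, psd2deltapsd1delta::Psd1-LGS/AAA) that copy has alanines in place of the LGS site at which Psd1 cuts itself, so that it stays uncut and cells need ethanolamine, per the labels. In the control (WT, psd2deltapsd1delta::Psd1-3XFLAG) the copy is functional and carries a FLAG tag. The media were YPD with 2 mM ethanolamine (LGE, WTE), YPD with 1% tergitol and 0.5 mM lyso-phosphatidylethanolamine (LGL, WTL), YPD with 2 mM choline (LGC, WTC) and plain YPD (LGD, WTD). No group had tergitol alone, so effects of the detergent and of the lipid cannot be told apart, and no group was labelled as treated with pheromone.

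Psd1 makes phosphatidylethanolamine in the mitochondrial inner membrane. Haploid yeast comes in the mating types a and alpha, and each type secretes a peptide pheromone that cells of the other type sense through a G protein-coupled receptor. The receptor's signal passes through a MAP kinase cascade to the transcription factor Ste12, which binds pheromone response elements and raises the genes of agglutination, cell cycle arrest and fusion. Genes used only by a cells are read through the factor Mcm1 at a site called the P box, and in alpha cells the repressor alpha2 binds beside Mcm1 and shuts them off.

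The a-factor precursors are encoded by MFA1 and MFA2, and their coding sequences are shown because these genes are near-duplicates whose counts could be confused. The sequences were read from the RefSeq R64 genome at the files' own coordinates, 5′ to 3′ on the coding strand, with the start and stop codons in capitals.
MFA1 (chrIV:1385176-1385286, forward strand): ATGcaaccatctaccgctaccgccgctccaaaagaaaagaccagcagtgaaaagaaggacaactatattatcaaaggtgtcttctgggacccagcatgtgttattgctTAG
MFA2 (chrXIV:352414-352530, forward strand): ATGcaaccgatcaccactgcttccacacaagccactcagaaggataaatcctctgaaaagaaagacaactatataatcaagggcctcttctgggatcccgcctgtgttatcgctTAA
They have 111 and 117 bases, share 72.7% of 121 aligned positions, and have no identical run longer than 11 bases. Reads of either gene can therefore be told from those of the other.

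The P box and its flanks are shown for the 6 members that hold an operator of the a-specific kind. FUS1, FUS3, AGA1 and FIG1 had none. The operator is known as the control of genes used only by a cells, so finding it in such genes is no independent evidence. A P box was searched as CC and GG with 6 bases of any kind between them, and an alpha2 site as CATGTNA, on both strands, in the 400 bases that end 100 bases before the start codon. An operator was counted where an alpha2 site lay within 12 bases of the P box, with an overlap of at most 3 bases. The P box is in capitals.
MFA1 (chrIV:1384938-1384975, forward strand): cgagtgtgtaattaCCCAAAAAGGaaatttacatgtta
MFA2 (chrXIV:352159-352196, forward strand): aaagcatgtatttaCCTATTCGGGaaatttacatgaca
STE2 (chrVI:82348-82385, forward strand): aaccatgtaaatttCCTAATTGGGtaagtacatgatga
STE6 (chrXI:46474-46511, reverse strand): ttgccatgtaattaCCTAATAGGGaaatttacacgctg
BAR1 (chrIX:322074-322111, forward strand): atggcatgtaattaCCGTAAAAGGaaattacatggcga
AGA2 (chrVII:437098-437135, reverse strand): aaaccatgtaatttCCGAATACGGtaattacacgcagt
Such an operator was found in 35 of 6000 windows of coding genes (0.583%). The P box alone occurred in 45.2% of all windows and in 7 of 10 members, and the alpha2 site alone in 15.3% of windows and in 6 of 10 members. The 6 genes are the pheromone, export, receptor, protease and adhesion genes that a cells alone use, and the P box lay from 202 to 288 bases before their start codons.

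The pheromone response element was searched as TGAAACA on both strands, and the stretches that hold it are shown for FUS1, FUS3 and AGA1, in which no operator was found. Matches are in capitals, on whichever strand they lie.
FUS1 (chrIII:71596-71669, forward strand): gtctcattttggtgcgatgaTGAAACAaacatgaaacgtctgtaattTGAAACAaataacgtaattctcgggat
FUS3 (chrII:192169-192321, forward strand): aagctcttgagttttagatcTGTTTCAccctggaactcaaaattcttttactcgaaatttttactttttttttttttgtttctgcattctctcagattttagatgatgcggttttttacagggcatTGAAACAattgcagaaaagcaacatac
AGA1 (chrXIV:703477-703523, forward strand): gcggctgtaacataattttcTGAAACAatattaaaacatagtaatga
In the same window the element was present in 9.87% of 6000 genes and in 9 of 10 members, FIG1 being the exception. At least 2 copies were present in 0.65% of all genes and in 6 of 10 members. These matches describe the letters of the windows and do not show binding.

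The libraries held 16044470 to 20946936 counts each. Replicates 1 and 2 lay nearest to each other in all 8 groups (Pearson r of log2 CPM over genes 0.989 to 0.994, against 0.955 to 0.988 for pairs with replicate 3), so the spread over 3 libraries is lower than it would be for 3 equally distant ones. CPM are counts scaled to the library total with TMM factors over all 24 libraries. The labels do not say whether replicates are separate cultures, and p-values measure the spread between these libraries. PSD1 had means of 470 to 594 CPM in the 4 mutant groups and 599 to 862 CPM in the 4 control groups, and counts do not tell the 2 alleles apart.

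The libraries showed transcripts of a cells. A list of 8 a cell markers, 6 of them members, summed to 1281 to 4163 CPM per library, and 5 alpha cell markers, of which 4 were measured, to 69.7 to 160 CPM. MF(ALPHA)1, the main alpha-factor gene, stood at 0.108 to 1.79 CPM, and SAG1, the alpha cell agglutinin, made up most of the alpha sum with 51.9 to 112 CPM. STE3, the receptor of alpha cells for a-factor, had 26.8, 28.9 and 27.0 CPM in LGD and 9.10, 10.7 and 8.79 CPM in WTD, a log2 ratio of 1.51 ± 0.12 (SE, adjusted p = 0.000849, edgeR). STE3 thus differed between strains while remaining far below STE2. No diploid marker sum exceeded 133 CPM. The mating type itself is not given by the labels, and whether other cells contributed to any result was not tested.

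Per length, the pheromone genes were the highest of the 10. Medians over 24 libraries were 4874 FPKM for MFA2 and 2232 FPKM for MFA1, followed by 1183 FPKM for AGA2 and 614 FPKM for STE2. AGA1 and BAR1 were next with 167 and 166 FPKM, and their library ranges overlapped almost fully. FUS3 had 127 FPKM, STE6 48.3 FPKM, FUS1 27.3 FPKM and FIG1 3.39 FPKM. FPKM of genes as short as MFA1 and MFA2 depend strongly on how a read is assigned to a short feature. The widest range over libraries was that of FIG1, 14.5 times between its highest and lowest CPM, with 12 to 199 counts per library. The narrowest was that of FUS3, 1.56 times.

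**Figure D1:**
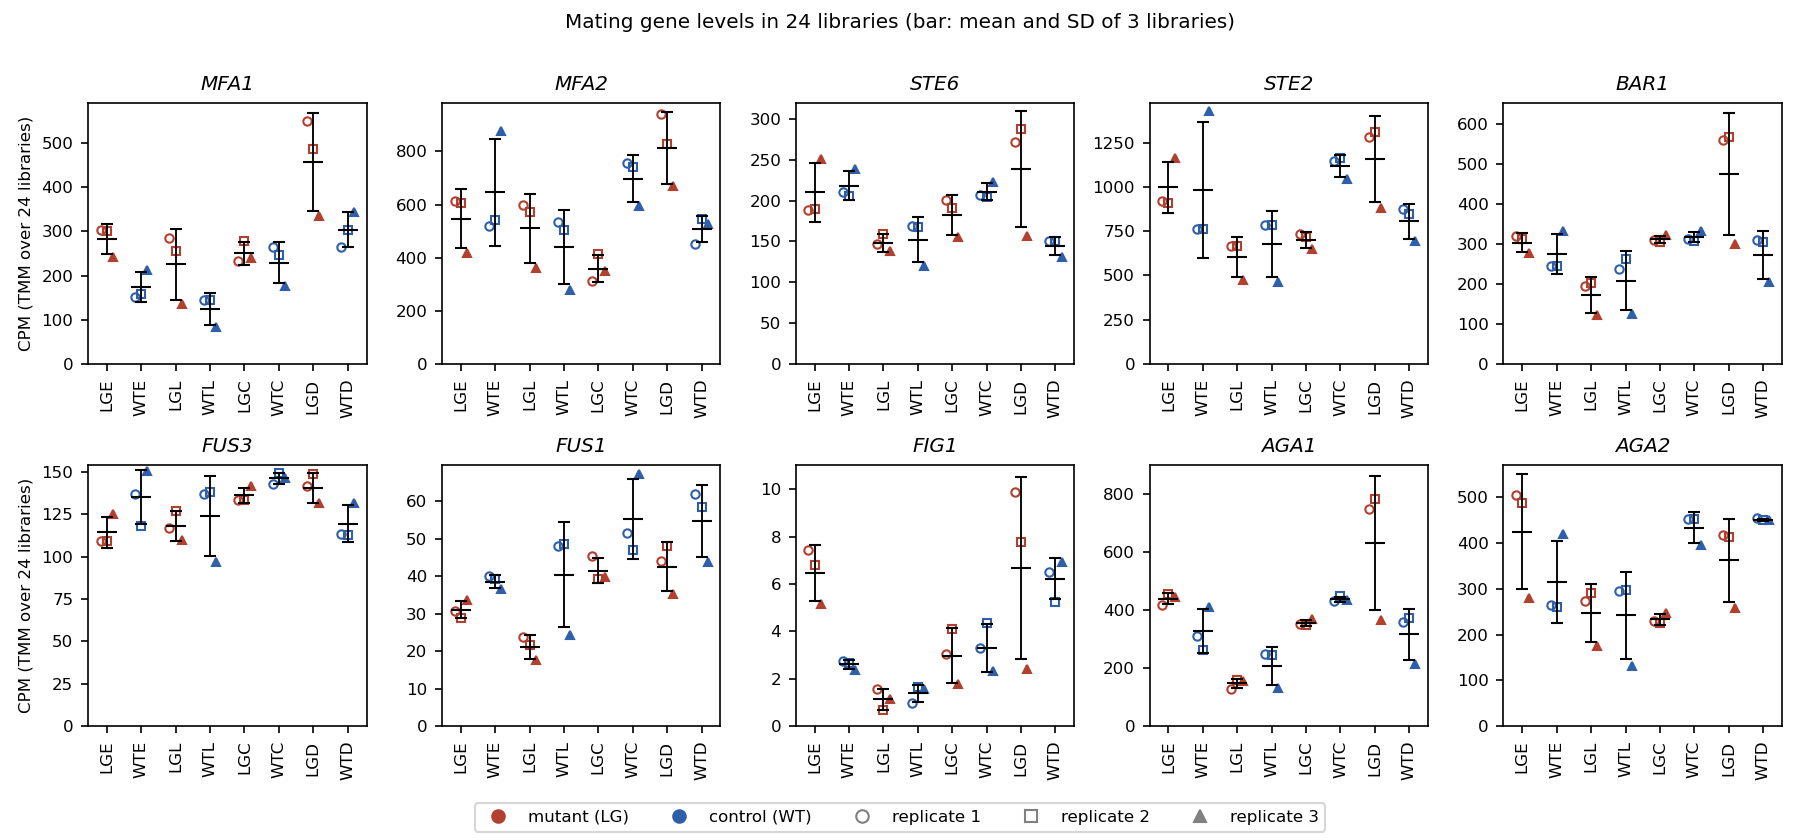
Level of each of the 10 genes in every library, in CPM on a linear axis from 0 (n = 3 libraries a group; circles, squares and triangles are replicates 1, 2 and 3; black bars are means and SD). In LGD the triangle of AGA1 lies at 365 CPM, far below 750 and 783 CPM of the other replicates, while the 3 LGL libraries lie at 129 to 159 CPM.

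Without a supplement, the question was how the 10 genes differed between the mutant and the control strain. MFA2 and STE6, the transporter that exports a-factor, rose in the mutant. MFA2 had 940, 829 and 669 CPM in LGD and 453, 544 and 526 CPM in WTD, and the groups did not overlap. Its log2 fold change was 0.66 ± 0.16 (SE, adjusted p = 0.0206, edgeR quasi-likelihood test with Benjamini-Hochberg adjustment over 6169 genes). STE6 had 272, 288 and 157 CPM in LGD and 150.5, 150.4 and 132 CPM in WTD, with 0.71 ± 0.23 (adjusted p = 0.0481). The LGD replicate 3 of STE6 lay close to the control libraries.

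The differences in AGA1 and BAR1, larger than these, and that in MFA1 were not called. AGA1, which anchors the a-agglutinin in the cell wall, had 750, 783 and 365 CPM in LGD and 361, 372 and 216 CPM in WTD, and differed by 0.98 ± 0.34 (adjusted p = 0.0596). BAR1, the secreted protease that degrades alpha-factor, had 559, 566 and 300 CPM in LGD and 311, 305 and 204 CPM in WTD, with 0.78 ± 0.28 (adjusted p = 0.0708). In both genes LGD replicate 3 lay within the control range, and the groups overlapped. MFA1 (0.57 ± 0.20) and STE2, the alpha-factor receptor (0.50 ± 0.20), had adjusted p of 0.0663 and 0.0855. FUS3, the mating MAP kinase, had 0.21 ± 0.10, and FIG1, a membrane protein of mating cells, 0.08 ± 0.46. FUS1, a membrane protein needed for cell fusion, had -0.39 ± 0.17, and AGA2, the adhesion subunit of a-agglutinin, -0.34 ± 0.19.

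In all, 2 of 10 members were called higher in LGD and 0 lower, against 19.5% higher and 17.3% lower of all genes tested, and their median log2 fold change was 0.53 against 0.01 over all genes. The members were chosen with results of these libraries known, so their calls here and below describe them and are no independent evidence. Both calls were lost without any 1 of WTD replicates 1, 2 and 3 and LGD replicates 1 and 2, where the adjusted p of MFA2 reached 0.0889 and that of STE6 0.147. Those fits called 17.4% to 25.3% of all genes. Without LGD replicate 3, 7 members were called higher, against 28.3% of all genes in that fit, among them AGA1 with 1.24 (adjusted p = 0.00198) and BAR1 with 1.01 (adjusted p = 0.00193).

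With ethanolamine in both strains, 0 of 10 members were called between LGE and WTE by edgeR, against 0.836% of all genes. At an unadjusted p under 0.05 there were 3, against 1023 of the 6220 genes tested. DESeq2 called 2, against 7.53% of all genes. Without LGE replicate 3, edgeR called 2, against 13.4% of all genes. FIG1 had 7.42, 6.80 and 5.14 CPM in LGE and 2.76, 2.67 and 2.38 CPM in WTE, without overlap, and differed by 1.29 ± 0.26 on the log2 scale (adjusted p = 0.0708). MFA1 had 303, 301 and 243 CPM in LGE and 151, 159 and 213 CPM in WTE, again without overlap, with 0.68 ± 0.19 (adjusted p = 0.135). The other 8 lay between -0.33 ± 0.12 (FUS1) and 0.42 ± 0.30 (AGA2).

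With tergitol and lyso-phosphatidylethanolamine, 0 of 10 were called between LGL and WTL by edgeR, against 1.52% of all genes. At an unadjusted p under 0.05 there were 2, against 1475 of the 6169 genes tested. DESeq2 called 1, against 13% of all genes. FUS1 had 23.8, 21.6 and 17.6 CPM in LGL and 48.1, 48.7 and 24.2 CPM in WTL, with -0.92 ± 0.28 (adjusted p = 0.114). WTL replicate 3 of FUS1 lay close to the mutant libraries. MFA1 had 286, 255 and 135 CPM in LGL and 145, 145 and 82.8 CPM in WTL, with 0.88 ± 0.33 (adjusted p = 0.168), and its groups overlapped. Libraries of these groups that carry the same number shared deviations from the group mean (r from 0.42 to 0.55). In other pairs of groups, such as WTL and WTD (r from -0.53 to -0.33), the deviations were opposite. The number is thus no block common to all groups. A fit of LGL and WTL blocked on it called both, MFA1 with 0.85 ± 0.09 (adjusted p = 0.00431) and FUS1 with -0.87 ± 0.16 (adjusted p = 0.0202). That fit called 20.1% of all genes. Without LGL replicate 3 the unblocked fit called 1 member and 17.7% of all genes, and without WTL replicate 3 it called 2 members and 5.71% of all genes.

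**Figure D2:**
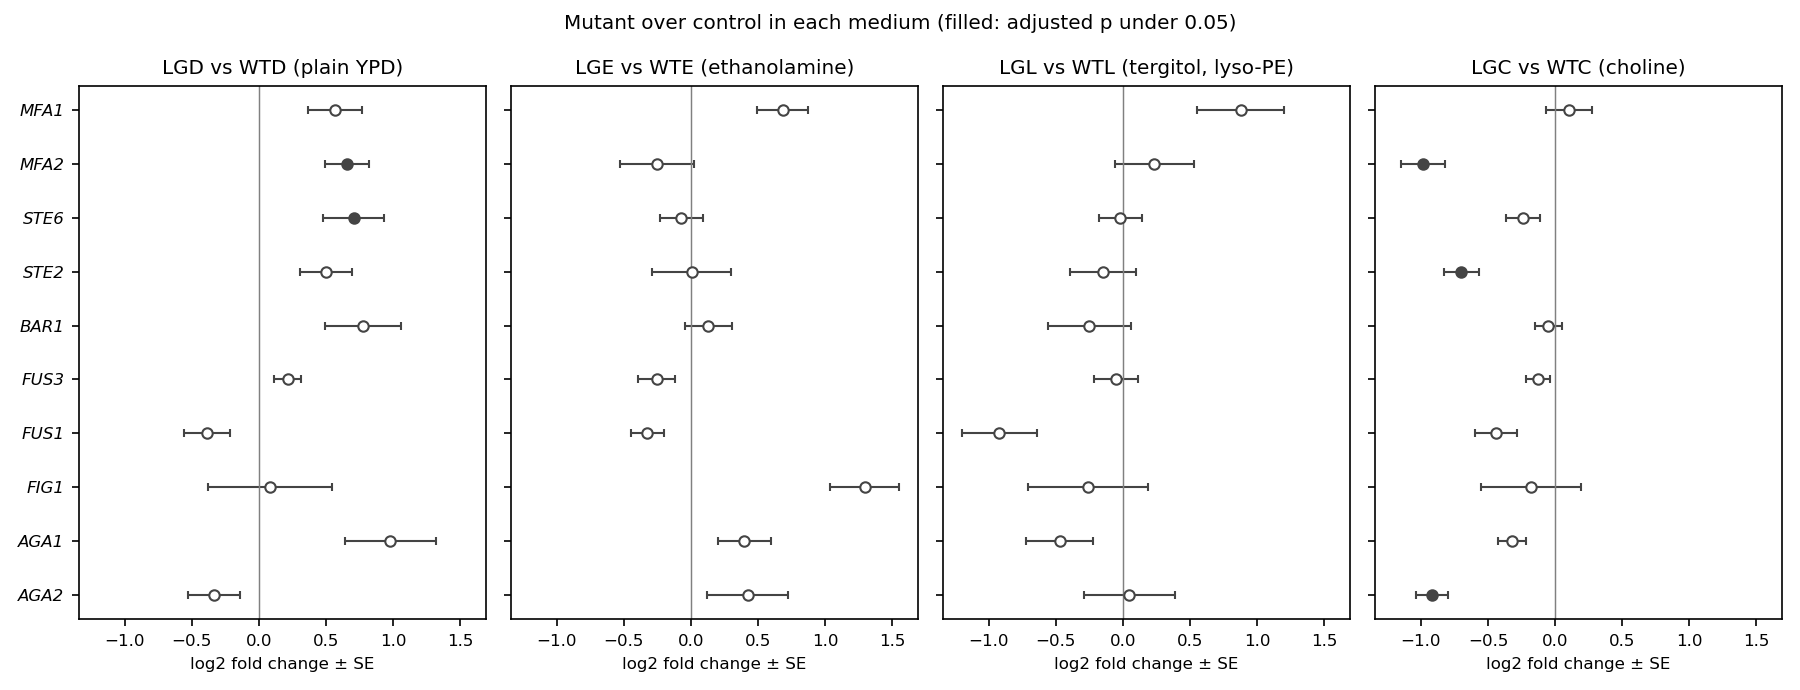
Log2 fold change of the mutant over the control for each gene in plain YPD and in the 3 supplemented media, with standard errors (edgeR, 3 against 3 libraries; filled points have an adjusted p under 0.05). MFA2 lies at 0.66 in plain YPD and at -0.98 with choline, and AGA2 at -0.92 with choline.

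With choline, 3 genes of pheromone, receptor and adhesion were lower in the mutant. MFA2 had 314, 415 and 348 CPM in LGC and 756, 742 and 595 CPM in WTC, and fell by 0.98 ± 0.17 on the log2 scale (adjusted p = 0.0119). STE2 had 733, 718 and 648 CPM in LGC and 1144, 1160 and 1043 CPM in WTC, and fell by 0.70 ± 0.13 (adjusted p = 0.0166). AGA2 had 229, 225 and 248 CPM in LGC and 453.3, 453.3 and 395 CPM in WTC, and fell by 0.92 ± 0.12 (adjusted p = 0.00583). The values of each of these 3 genes were separate between the strains. That is a description, without the share of all genes so separated beside it.

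These 3 of 10 stand against 6.93% of all genes called lower and 9.7% called higher in LGC, and no member was called higher. MFA1 was at 0.10 ± 0.17, so that the a-factor genes differed in value, MFA1 holding 232, 279 and 239 CPM in LGC and 265, 246 and 177 CPM in WTC. AGA1 was at -0.32 ± 0.11 (adjusted p = 0.0799) beside its partner AGA2. The AGA2 call held without each library in turn, with an adjusted p of at most 0.0485. The MFA2 call was lost without WTC replicate 1 or 2 or LGC replicate 1 (adjusted p up to 0.0717), and the STE2 call without these or LGC replicate 2 (up to 0.101). STE2 was also not called in a fit of all 24 libraries (-0.67 ± 0.24, adjusted p = 0.0573). Without WTC replicate 3 or LGC replicate 3, 4 members were called lower, against 11.1% and 17.1% of all genes.

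In the mutant, tergitol with lyso-phosphatidylethanolamine went with lower levels of AGA1, BAR1, FUS1 and STE2. AGA1 had 129, 159 and 155 CPM in LGL and 750, 783 and 365 CPM in LGD, and fell by 2.10 ± 0.30 on the log2 scale (adjusted p = 0.0155). BAR1 had 194, 201 and 122 CPM in LGL and 559, 566 and 300 CPM in LGD, and fell by 1.46 ± 0.30 (adjusted p = 0.0293). FUS1 had 23.8, 21.6 and 17.6 CPM in LGL and 44.1, 48.0 and 35.3 CPM in LGD, and fell by 1.02 ± 0.18 (adjusted p = 0.0217). STE2 had 667, 667 and 473 CPM in LGL and 1280, 1309 and 878 CPM in LGD, and fell by 0.94 ± 0.23 (adjusted p = 0.0409). For these 4 genes every LGL library was below every LGD library. This describes their values only, as the share of all genes separated in this way is not given here.

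FIG1 had 1.56, 0.681 and 1.16 CPM in LGL, or 32, 12 and 25 counts, and 9.88, 7.77 and 2.39 CPM in LGD, or 199, 156 and 46 counts. Its log2 fold change was -2.54 ± 0.57. FIG1 was already known from earlier results as a gene with a large fall in this comparison and in WTL against WTD, so it is described there without a p. Of the rest, MFA1 (-1.02 ± 0.31, adjusted p = 0.0685), STE6 (-0.69 ± 0.23), MFA2 (-0.67 ± 0.24), AGA2 (-0.56 ± 0.26) and FUS3 (-0.26 ± 0.13) were not called.

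Leaving FIG1 aside, AGA1, BAR1, FUS1 and STE2 were called lower and 0 members higher, against 7.43% lower and 5.82% higher of all genes. The median over all 10 members, FIG1 among them, was -0.98 against 0.01 over all genes. No member was called without any 1 of LGL replicates 1 and 2 or LGD replicates 1 and 2. Of all genes, 0.016% were called without LGL replicate 1 or 2, and 0.513% and 0.529% without LGD replicates 1 and 2. The adjusted p then reached 0.1004 for AGA1, 0.124 for BAR1, 0.116 for FUS1 and 0.162 for STE2. Without LGL replicate 3, AGA1, BAR1 and FUS1 were called and STE2 and FIG1 were not, against 12.2% of all genes called lower in that fit. Without LGD replicate 3, 9 members were called with FIG1 counted, against 17.2% of all genes.

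Ethanolamine and choline gave no called member in the mutant. Between LGE and LGD 0 of 10 were called by edgeR, against 0.225% of all genes. At an unadjusted p under 0.05 there were 4, against 598 of the 6213 genes tested. DESeq2 called 0, against 2.71% of all genes. Without LGD replicate 3 edgeR called 2, against 1.07% of all genes. MFA1 had 303, 301 and 243 CPM in LGE and 549, 486 and 336 CPM in LGD, with -0.68 ± 0.21 (adjusted p = 0.359) and no overlap of the groups. Between LGC and LGD 0 of 10 were called by edgeR, against 0% of all genes. At an unadjusted p under 0.05 there were 5, against 899 of the 6198 genes tested. DESeq2 called 3, against 4.8% of all genes, and edgeR without LGD replicate 3 called 6, against 2.27%. MFA2 had 314, 415 and 348 CPM in LGC and 940, 829 and 669 CPM in LGD, with -1.17 ± 0.18 (adjusted p = 0.239).

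Same-numbered LGC and LGD libraries also shared deviations, and the blocked fit called 3 members lower, against 13.6% of all genes in that fit. They were MFA2 (-1.17 ± 0.14, adjusted p = 0.00830), MFA1 (-0.84 ± 0.15, adjusted p = 0.0173) and STE2 (-0.70 ± 0.11, adjusted p = 0.0125). The comparisons of the 3 supplements share the LGD libraries, as those in the control strain share WTD.

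In the control strain ethanolamine went with less MFA1, FUS1 and FIG1 and more STE6. STE6 had 210, 205 and 238 CPM in WTE and 150.5, 150.4 and 132 CPM in WTD, and rose by 0.62 ± 0.10 on the log2 scale (adjusted p = 0.00529). MFA1 had 151, 159 and 213 CPM in WTE and 264, 304 and 344 CPM in WTD, and fell by 0.78 ± 0.16 (adjusted p = 0.0105). FIG1 had 2.76, 2.67 and 2.38 CPM in WTE and 6.52, 5.24 and 6.92 CPM in WTD, and fell by 1.24 ± 0.21 (adjusted p = 0.00562). FUS1 fell by 0.49 ± 0.13 (adjusted p = 0.0349).

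Against these 1 higher and 3 lower members stand 11.6% higher and 11% lower of all genes. MFA2 was at 0.37 ± 0.21, in the other direction from MFA1 but not called. The calls of STE6 and FIG1 held without each library in turn. The MFA1 call was lost without WTE replicate 2 (adjusted p = 0.0503), and that of FUS1 without WTD or WTE replicates 1 or 2 (up to 0.128). In these groups too same-numbered libraries shared deviations, and the fit blocked on the replicate number also called AGA2 (-0.54 ± 0.15, adjusted p = 0.0232, against -0.50 ± 0.19 and 0.0920 without it). That fit called 33.6% of all genes. Without WTE replicate 2 the count was 2, against 11.2% of all genes. A fit of all 24 libraries called none of STE6, MFA1, FIG1 and FUS1 (adjusted p from 0.0514 to 0.139) and 7.59% of all genes.

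With tergitol and lyso-phosphatidylethanolamine, MFA1 had 145, 145 and 82.8 CPM in WTL and 264, 304 and 344 CPM in WTD, and fell by 1.29 ± 0.22 (adjusted p = 0.0152). FIG1 had 0.963, 1.63 and 1.57 CPM in WTL and 6.52, 5.24 and 6.92 CPM in WTD, with -2.16 ± 0.30. Apart from FIG1, only MFA1 was called lower and 0 members were called higher, against 5.92% lower and 6.82% higher of all genes. AGA2, at -0.90 ± 0.29 (adjusted p = 0.0851), AGA1, at -0.61 ± 0.30, BAR1, at -0.39 ± 0.29, and FUS1, at -0.44 ± 0.27, were not called. Nor were STE2 (-0.25 ± 0.22), MFA2 (-0.20 ± 0.24), STE6 (0.08 ± 0.14) and FUS3 (0.06 ± 0.15). The MFA1 call was lost without WTD replicate 1 or 2 (adjusted p up to 0.0706), and FIG1 was not called without WTD replicate 1. Without WTL replicate 3 there were 3 with FIG1 counted, against 14.8% of all genes called lower.

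With choline, STE6 had 206, 205 and 223 CPM in WTC and rose by 0.58 ± 0.08 over WTD (adjusted p = 0.00510). STE2 had 1144, 1160 and 1043 CPM in WTC and 877, 846 and 694 CPM in WTD, and rose by 0.49 ± 0.12 (adjusted p = 0.0284). MFA2 rose by 0.48 ± 0.13 (adjusted p = 0.0389) and FUS3 by 0.32 ± 0.08 (adjusted p = 0.0374). FIG1 had 3.29, 4.34 and 2.31 CPM in WTC and fell by 0.89 ± 0.26 (adjusted p = 0.0491).

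These 4 higher and 1 lower members stand against 10.1% higher and 9.05% lower of all genes. The STE6 call held without each library in turn. Those of MFA2, STE2, FUS3 and FIG1 were lost without WTD replicates 1 or 2 and without WTC replicate 1. MFA2, STE2 and FUS3 also lost theirs without WTC replicate 2, FIG1 without WTC replicate 3, and MFA2, STE2 and FIG1 without WTD replicate 3, with adjusted p up to 0.159. FIG1 was not called without the filter on low counts. A fit of all 24 libraries called none of STE6, STE2, MFA2, FUS3 and FIG1 (adjusted p from 0.141 to 0.360) and 1.33% of all genes.

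**Figure D3:**
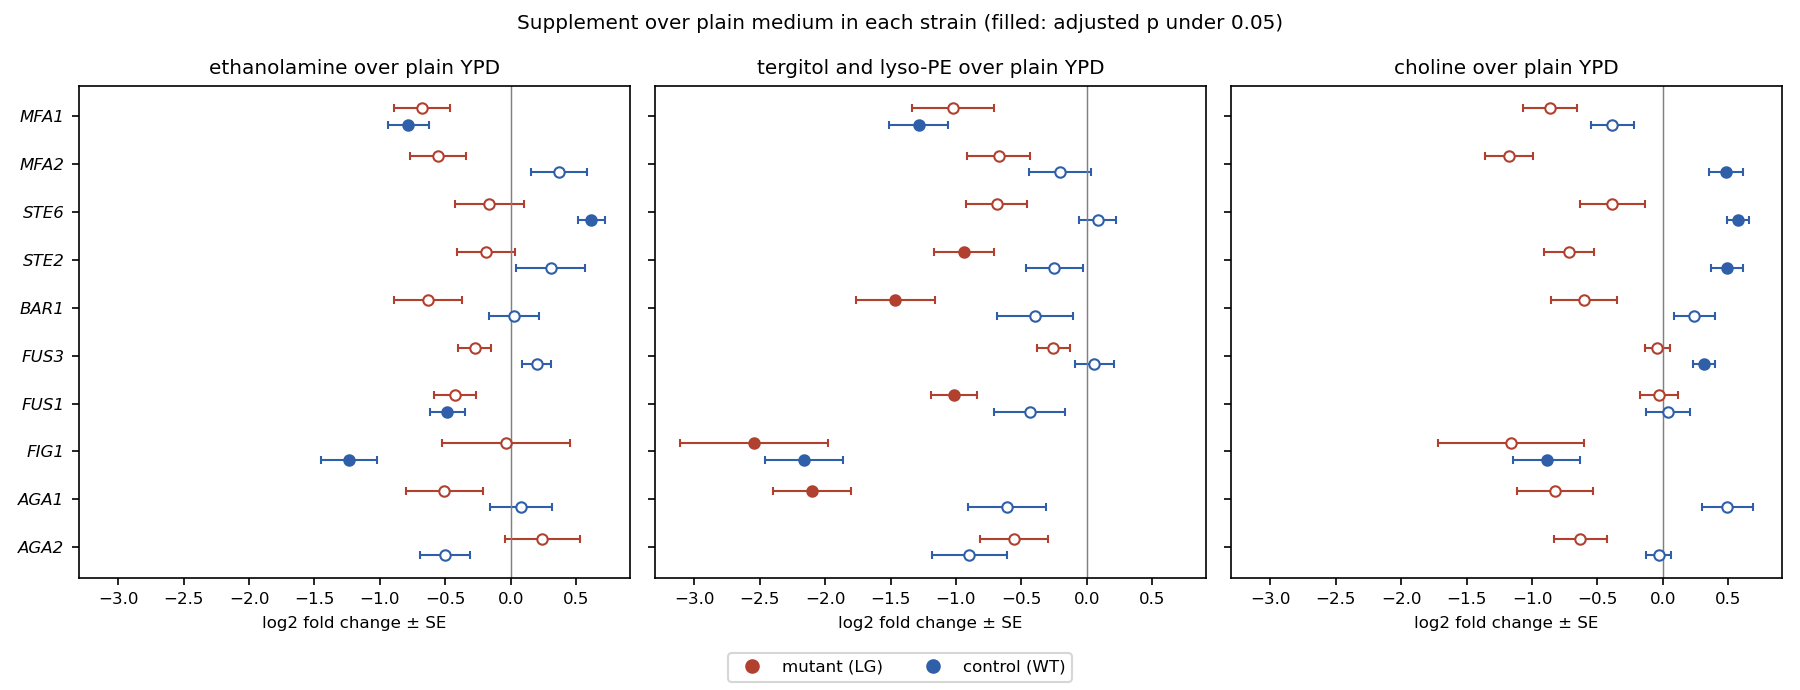
Log2 fold change of each supplemented medium over plain YPD for each gene, with standard errors, in the mutant (red, upper) and the control (blue, lower) (edgeR, 3 against 3 libraries; filled points have an adjusted p under 0.05, and those of FIG1 in the middle panel are a description). With choline MFA2 lies at -1.17 in the mutant and 0.48 in the control, and with tergitol and lyso-phosphatidylethanolamine AGA1 lies at -2.10 and -0.61.

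Whether a supplement changed a gene differently in the mutant and the control was tested as an interaction over 12 libraries. For choline, MFA2 had an interaction of -1.64 ± 0.23 on the log2 scale (adjusted p = 0.0170), with -1.17 in the mutant and 0.48 in the control. STE2 had -1.20 ± 0.23 (adjusted p = 0.0438), with -0.72 in the mutant and 0.49 in the control. These 2 of 10 stand against 0.416% of all genes called lower. AGA1 (-1.30 ± 0.38), STE6 (-0.95 ± 0.27) and BAR1 (-0.83 ± 0.32) were not called, with adjusted p of 0.104, 0.102 and 0.147.

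For tergitol with lyso-phosphatidylethanolamine, AGA1 had an interaction of -1.49 ± 0.46 (adjusted p = 0.0338), 1 of 10 members against 13% of all genes called lower. For ethanolamine 0 of 10 were called by edgeR, against 5.3% of all genes. At an unadjusted p under 0.05 there were 3, against 1339 of the 6281 genes tested. DESeq2 called 0, against 9.91% of all genes. Without LGE replicate 3 edgeR called 2, against 23.7% of all genes.

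The MFA2 choline call was lost without any 1 of LGC replicate 1, LGD replicates 1 and 2, WTC replicate 2 and WTD replicates 1 and 2 (adjusted p up to 0.0732). The STE2 call was lost in 10 of 12 such fits (up to 0.149) and held without LGD replicate 3 and WTC replicate 3. The AGA1 call was lost in 8 of 12 (up to 0.0878), and held without LGL replicate 3, LGD replicate 3, WTL replicate 3 or WTD replicate 2. The number of members called reached 7 for choline without LGD replicate 3, where 23.5% of all genes were called, and 5 for tergitol with lyso-phosphatidylethanolamine without WTL replicate 3, where 23.2% were.

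In some groups most of the 10 genes lay on one side of replicates 1 and 2 in replicate 3. In LGD replicate 3 was below the mean of the others for 10 of 10 members, by a median of -0.65 on the log2 CPM scale, against a median of 0 over all genes. In WTL it was below for 9 of 10, by a median of -0.85, against -0.05 over all genes, and in LGL below for 8 of 10, by -0.43. In WTE it was above for 8 of 10, by 0.45, against -0.02. In LGE, LGC, WTC and WTD the members' medians lay between -0.10 and -0.07. Scaling holds the signed median over all genes near 0. The median absolute distance over all genes was 0.29 in LGD, 0.30 in WTL, 0.32 in LGL and 0.23 in WTE. That of the members was 0.65, 0.85, 0.43 and 0.45. In LGE, LGC, WTC and WTD it was 0.40, 0.32, 0.19 and 0.15 over all genes and 0.33, 0.09, 0.17 and 0.26 in the members. The share of all genes on each side in replicate 3 is not given here. What set replicate 3 apart was not tested, and the labels give no batch or date.

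**Figure D4:**
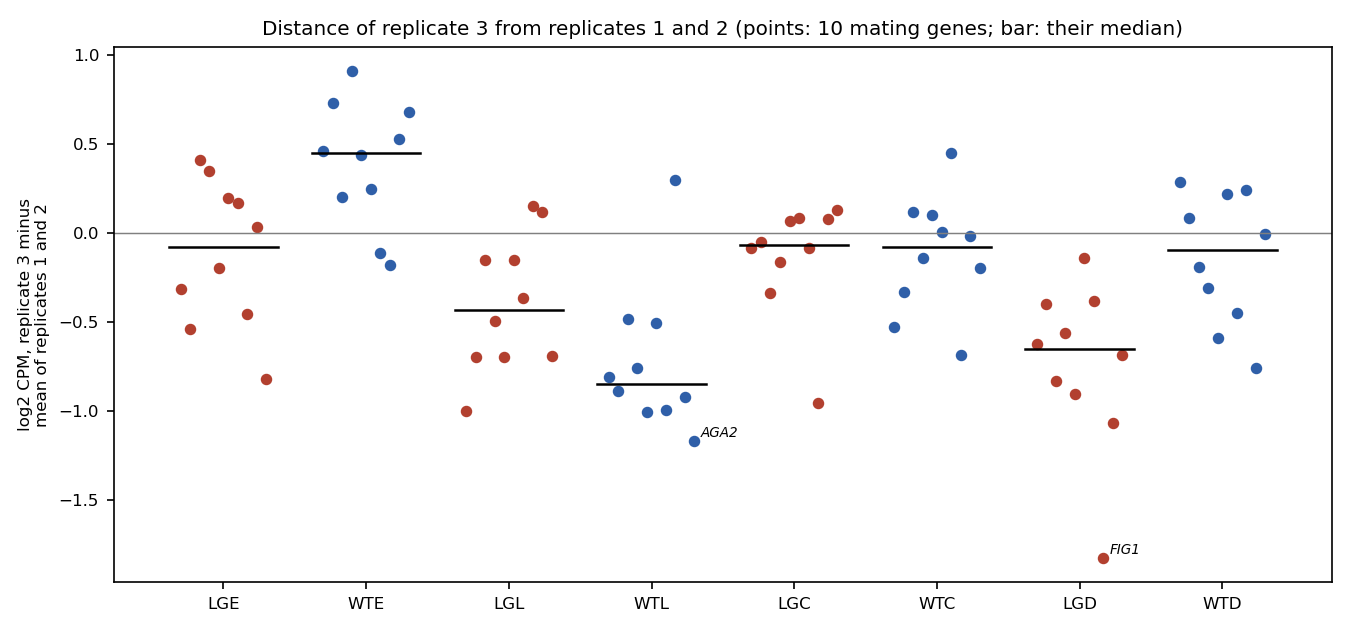
Log2 CPM of replicate 3 minus the mean of the other replicates in each group (points: the 10 genes; black bars: their median). In LGD all 10 points lie below 0, with FIG1 lowest, and in WTE 8 of 10 lie above 0.

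Other genes of the mating pathway did not follow 1 pattern between LGD and WTD, where 19.5% of all genes were called higher and 17.3% lower. Of 18 genes of signalling from the receptor to the nucleus, 4 were called higher and 2 lower, shares near those of all genes. FAR1, which arrests the cell cycle for mating, rose by 1.05 ± 0.20 (adjusted p = 0.00882), STE5, the scaffold of the kinase cascade, rose by 0.52 ± 0.10 (adjusted p = 0.00832), and DIG1, an inhibitor of Ste12, fell by 0.47 ± 0.09 (adjusted p = 0.0108). The median of the list was 0.14, against 0.01 over all genes. Of 19 other pheromone-induced genes, 5 were higher and 1 lower, with a median of -0.02. PRM5 rose by 1.85 ± 0.18 (adjusted p = 0.00120), AFB1 rose by 0.63 ± 0.08 (adjusted p = 0.00262), and ASG7, an a-specific regulator of signalling, fell by 0.48 ± 0.09 (adjusted p = 0.00813). FAR1 and SST2 are in both of these lists.

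Of 7 genes that modify, cut or mature a-factor, 0 were higher and 2 lower, STE23, a protease of a-factor processing, by -0.65 ± 0.09 (adjusted p = 0.00288) and RAM2, a farnesyltransferase subunit, by -0.30 ± 0.09 (adjusted p = 0.0333). Of 5 filamentation genes of Ste12 and Tec1, SVS1 (0.90 ± 0.15, adjusted p = 0.00543) and KSS1 (0.65 ± 0.18, adjusted p = 0.0283) rose and TEC1 fell (-0.94 ± 0.16, adjusted p = 0.00666). Among 4 silencing genes, which keep the silent mating cassettes shut, SIR2 (0.89 ± 0.17, adjusted p = 0.00879) and SIR4 (0.58 ± 0.11, adjusted p = 0.00813) rose. Of 10 genes read in daughter cells in G1, 5 were higher and 1 lower, with DSE4 at 1.12 ± 0.12 (adjusted p = 0.00166), ASH1 at 1.32 ± 0.20 (adjusted p = 0.00423) and SCW11 at 1.28 ± 0.22 (adjusted p = 0.00653). This list summed to 3892, 4043 and 3238 CPM in LGD and 2907, 2875 and 3108 CPM in WTD, moving with the members. Its part in the members' levels was not tested, and in bulk RNA a changed share of cells and a changed level per cell cannot be told apart.

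Between LGL and LGD the pheromone-induced list had 0 of 19 higher and 9 lower, against 5.82% higher and 7.43% lower of all genes, with a median of -0.77 against 0.01 over all genes. FAR1 fell by 1.29 ± 0.20 (adjusted p = 0.0171), PRM5 by 1.17 ± 0.20 (adjusted p = 0.0216) and AFB1 by 0.94 ± 0.13 (adjusted p = 0.0149). In the signalling list 2 of 18 were higher, DIG1 with 0.72 ± 0.12 (adjusted p = 0.0198) among them, and 3 were lower. Between LGC and WTC the pheromone-induced list had 1 of 19 higher and 5 lower, against 9.7% higher and 6.93% lower of all genes, with a median of -0.22 against 0.02 over all genes, and PRM5 was the gene that rose, by 1.41 ± 0.13 (adjusted p = 0.00242). Markers of alpha cells also differed in some of these contrasts. Of the 4 measured, 1 was higher and 0 lower in LGD than in WTD. In LGL against LGD 0 were higher and 2 lower. In LGC against WTC 2 were higher and 0 lower, with a median of 0.94, while the members' median was -0.28. The lists were drawn up with earlier results of these data known.

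Across the 24 libraries the members differed in how closely they followed each other. The Pearson correlation of log2 CPM was 0.93 between BAR1 and AGA1 and 0.84 between STE2 and AGA1, but 0.59 between MFA1 and MFA2, 0.62 between AGA1 and AGA2, and 0.03 between FUS3 and FIG1. Among 5797 genes ranked, the non-member most like AGA1 was FIG2, an adhesion gene of mating cells (0.898), and the one most like STE2 was SST2, which switches off the G protein (0.867). FAR1 was the most like STE6 (0.872), KAR5, needed for nuclear fusion, the most like FUS1 (0.836), and SAG1 the most like FIG1 (0.868). For the other 5 members the nearest genes were SIM1 (BAR1, 0.86), YLR179C (MFA1, 0.892), EMC6 (MFA2, 0.849), CIR2 (FUS3, 0.729) and VMA3 (AGA2, 0.885). These correlations are descriptions over libraries that share groups and replicate numbers.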

How the data were processed

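RNA of 24 yeast samples was extracted with hot phenol and sequenced by a company, per the labels' protocols. STAR 2.5, HTSeq 0.6.1, DESeq2 and CASAVA are named in the submitters' processing notes, with no parameters. Strandedness and genome build are not given in the sources used here. The 7 deposited tables hold whole-number read counts per gene, which were used in every test, and FPKM values made by the authors, used only for levels. The signal (counts divided by size factors), the log2 fold changes and the p-values deposited by the authors were not used. Joining the tables on the gene ID gave 6814 genes, 6433 of them in all 7 tables, and counts of the same library did not differ between tables (0 differences). Every per-sample column was mapped. Coordinates equal those of R64 for 5915 of 5924 matched genes and for all 10 members, so sequences were read from that RefSeq genome.

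Each pairwise comparison used its 6 libraries and each interaction 12, with edgeR 4.0.16 in R 4.3.3: TMM scaling, filterByExpr, the quasi-likelihood F test and Benjamini-Hochberg adjustment over all genes tested, with a threshold of 0.05. All 10 members passed the filter in every comparison. Standard errors come from the F statistic. Likeness used log2 CPM (prior count 2) of genes with a mean of at least 50 counts. With 16044470 to 20946936 counts per library, counting error is small except for FIG1. Alternatives were DESeq2's size factors, no filter, DESeq2 1.42.0's Wald test, the replicate number as a block, all 24 libraries in one fit, replicates 1 and 2 summed into 1 library, and each library left out. Replicates 1 and 2 without replicate 3 were added after seeing the data. The test was tried on simulated counts with 200 genes changed 2-fold. It recovered 78.5% of them in LGD vs WTD and 46% in the choline interaction, and called 9 and 8 unchanged genes. The simulated replicates were drawn independently, while replicates 1 and 2 of the data nearly coincide, so the recovery in these libraries is not known. Replicate numbers come from the labels. Deviations of same-numbered libraries correlated above 0.1 for all 3 numbers in LGL vs WTL, LGC vs WTC, LGC vs LGD and WTE vs WTD. They correlated negatively in LGD vs WTD (-0.42 to -0.28), LGE vs LGD (-0.43 to -0.37), WTL vs WTD (-0.53 to -0.33) and WTC vs WTD (-0.63 to -0.38). In LGE vs WTE and LGL vs LGD they lay between -0.07 and 0.03. The members, lists and named genes (from each list up to 3 genes called in LGD vs WTD, by smallest p, and the cell type markers) were chosen with earlier results of these data known. MATALPHA1 and the HML genes were not analysed here.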

Additional observations from a re-analysis of the deposited data

Results flagged for a closer look

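A supplement changed 3 members differently in the mutant and the control, by a test of the difference itself with edgeR over 12 libraries. AGA1 with tergitol and lyso-phosphatidylethanolamine had an interaction of -1.49 ± 0.46 on the log2 scale (adjusted p = 0.0338), with -2.10 ± 0.30 in the mutant and -0.61 ± 0.30 in the control. MFA2 with choline had -1.64 ± 0.23 (adjusted p = 0.0170), with -1.17 ± 0.18 in the mutant and 0.48 ± 0.13 in the control. STE2 with choline had -1.20 ± 0.23 (adjusted p = 0.0438), with -0.72 ± 0.19 in the mutant and 0.49 ± 0.12 in the control. Each was lost in some fits that left out 1 library, and all 3 with replicates 1 and 2 summed. Of all genes, 13% were called lower in the interaction of AGA1's medium, so 1 of 10 members there is near that share. In the choline interaction 0.416% of all genes were called lower.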

How the results depend on the processing

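Numbers of members called (of 10, FIG1 counted throughout) depended on how replicate 3 and the near-coincident replicates 1 and 2 were treated. The cause was not tested. With replicates 1 and 2 summed, 0 were called in any comparison, against 0% to 4.65% of all genes. With replicates 1 and 2 alone, an alternative chosen after seeing the data, 10 were called in LGD vs WTD, 10 in LGE vs WTE, 6 in LGL vs WTL, 7 in LGC vs WTC, 9 in LGE vs LGD, 10 in LGL vs LGD, 9 in LGC vs LGD, 9 in WTE vs WTD, 9 in WTL vs WTD, 8 in the ethanolamine, 7 in the lyso-phosphatidylethanolamine and 8 in the choline interaction, but this setting also called 52.7% to 70% of all genes. In that setting 5 values reversed: MFA2 in LGE vs WTE (0.20), STE2, BAR1 and AGA1 in WTE vs WTD (-0.17, -0.32 and -0.34) and FUS1 in WTC vs WTD (-0.26). DESeq2's test called 6 in LGD vs WTD (40% of all genes), 2 in LGE vs WTE (7.53%), 1 in LGL vs WTL (13%), 8 in LGL vs LGD (24.4%), 3 in LGC vs LGD (4.8%) and 5 in the choline interaction (11.7%). The replicate block gave 2 in LGL vs WTL (20.1% of all genes), 0 in LGL vs LGD (0%), 3 in LGC vs LGD (24.6%), 0 in WTL vs WTD (0.0163%), 0 in WTC vs WTD (0.946%), and 4 in each of the lyso-phosphatidylethanolamine (22.4%) and choline (6.88%) interactions. It left the count at 2 in LGD vs WTD, where BAR1 and AGA1 replaced MFA2 and STE6. One fit of all 24 libraries gave 4 in LGD vs WTD (31.3% of all genes), 1 in LGE vs WTE (8.37%), 2 in LGL vs WTL (10.4%), 1 in LGC vs LGD (0.68%), 0 in WTE vs WTD (7.59%) and 0 in WTC vs WTD (1.33%), and in LGC vs WTC it left out STE2. Leaving out 1 library each gave 0 to 7 in LGD vs WTD, 0 to 2 in LGE vs WTE, 0 to 2 in LGL vs WTL, 1 to 4 in LGC vs WTC, 0 to 2 in LGE vs LGD, 0 to 9 in LGL vs LGD, 0 to 6 in LGC vs LGD, 2 to 5 in WTE vs WTD, 0 to 3 in WTL vs WTD, 1 to 4 in WTC vs WTD, and 0 to 2, 0 to 5 and 0 to 7 in the 3 interactions, in the same order. The share of all genes called moved as well, in LGL vs LGD from 0.016% to 33.2% over the fits without 1 library. DESeq2's size factors and the absence of a filter moved no count by more than 1.5 times. Of 24 called member results, with FIG1 in LGL vs LGD and in WTL vs WTD among them, 4 kept their call in every fit that left out a library. No value called with all libraries changed sign in any alternative. Of 1840 member values under an alternative, 62 that were called in neither fit changed sign, and none of these was more than 1.17 SE from 0 with all libraries.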
